A study of Mus musculus with 48 samples.

Results

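Collagen genes were followed in RNA sequencing libraries of the mouse dentate gyrus during the latent period after intrahippocampal kainate. They were taken as every protein-coding gene of the count table whose mouse symbol begins with Col and a digit and that reached 10 counts in at least 4 libraries. Of 44 such symbols, 42 met the count minimum, out of 55357 genes in the table, and they lay on 14 chromosomes. Col24a1 reached at most 9 counts and Col17a1 at most 12, in 1 library, and both were set aside. Of the 42 genes, 41 passed the filter for low counts and were tested among 21390 genes. The remaining gene, Col10a1, had at most 39 counts in a library.

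The 48 libraries came from 24 wild-type C57BL/6J mice, each giving the ipsilateral dorsal dentate gyrus, called the epileptogenic zone (EZ), and the contralateral dorsal dentate gyrus, called the peri-ictal zone (PIZ). Mice received a unilateral stereotactic injection of kainate, a glutamate receptor agonist that induces status epilepticus, or of saline, and were studied 3, 7 or 14 days later. Each combination of region, injection and day was a group of 4 libraries from 2 male and 2 female mice, aged 6 to 8 weeks per the labels and slightly older per the methods. Kainate-injected mice were included after a behavioural seizure, so all of them had seizures, and saline-injected mice shared the anaesthesia and the needle track. The tissue was dissected whole and included the hilus, glia and vessels, so each value is a mixture of cell types.

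Collagens are extracellular proteins built from 3 chains that wind into a triple helix, in which glycine recurs at every step of the repeat. Fibrillar types (I, II, III, V, XI and XXVII) form the rope-like fibrils of connective tissue, type IV forms the sheet-like network of basement membranes, and fibril-associated types sit on the surface of fibrils. In the healthy brain, fibrillar collagen is largely limited to the meninges and the walls of larger vessels, whereas type IV collagen surrounds every capillary. Some members, such as type XIX and the transmembrane type XXV, are made by neurons.

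The repeat that defines the family is given for a few of the genes on which the results turn, as the first 18 codons of the longest uninterrupted run of 3-codon units that begin with a glycine codon, with the glycine codon that opens each unit in capitals. They were read from the canonical Gencode M39 transcripts on GRCm39.
Col1a1: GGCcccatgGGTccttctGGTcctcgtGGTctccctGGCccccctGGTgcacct
Col3a1: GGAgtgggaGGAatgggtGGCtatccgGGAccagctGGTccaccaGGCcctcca
Col4a6: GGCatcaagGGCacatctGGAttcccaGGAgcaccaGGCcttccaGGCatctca
Col19a1: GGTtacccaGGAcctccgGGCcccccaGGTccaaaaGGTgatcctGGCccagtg
Col25a1: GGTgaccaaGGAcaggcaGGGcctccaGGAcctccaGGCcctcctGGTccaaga
The run was 338 units long in Col1a1, starting at codon 168 of 1453, and 344 units in Col3a1, starting at codon 164 of 1464. In Col4a6 it was 45 units of a 1691-codon gene, and in Col19a1 it was 57 units of 1136 codons. Col25a1 had a run of 40 units in 666 codons. Among the 5 genes shown, the fibrillar chains had the long unbroken runs, and the network, fibril-associated and transmembrane chains had shorter ones.

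The libraries held 17762656 to 25712975 counts, and the median library 22108562.5. Levels are given as CPM, the counts of a gene per 1000000 counts of the TMM-scaled library, and as FPKM (CPM per kilobase of exon length) where genes are compared with each other. A gene was called upregulated or downregulated at an edgeR quasi-likelihood adjusted p under 0.01, with Benjamini-Hochberg adjustment over all 21390 genes, and a fold change over 1.5. Each log2 fold change is given with its standard error (SE) for n = 4 mice per group, and the smallest 2-sided exact permutation p for 4 against 4 libraries is 0.0286.

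A few libraries stood apart. Among EZ libraries of kainate-injected mice at day 14, that of mouse 27 held most of the difference from saline. On day 7 the EZ libraries of mice 21 and 35 had far higher levels of type I and III collagen than those of mice 23 and 26, and at day 3 the EZ library of mouse 38 was the highest. Of the PIZ saline libraries, that of mouse 18 at day 3 and that of mouse 39 at day 14 had high levels of several collagens. Col6a1 was at 61.1 and 60.7 CPM in these libraries against 5.01 to 10.4 CPM in the other 10 PIZ saline libraries, and Col5a1 was at 17.4 and 18.9 CPM against 2.58 to 9.07 CPM. Their summed levels of 8 granule cell markers were 546 and 452 CPM, below all other saline libraries (768 to 1215 CPM). The PIZ kainate library of mouse 21 at day 7 was like them, with Col6a1 at 132 CPM, Col5a1 at 24.1 CPM, Col23a1 at 21.3 CPM and a granule cell sum of 366 CPM, the lowest of the 24 PIZ libraries.

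In saline-injected mice the most abundant collagens per length were those of the basement membrane. Across the 24 saline libraries, Col4a2 averaged 8.36 ± 1.32 FPKM (SD, n = 24) and Col4a1, its partner chain, 7.21 ± 0.985 FPKM. These neighbours in the order overlapped within their SD. Next were Col25a1, the transmembrane collagen of neurons, at 5.58 ± 1.06 FPKM and Col11a2, a fibrillar chain, at 4.07 ± 0.972 FPKM. Col9a3 and Col20a1, both fibril-associated, followed at 2.37 ± 0.454 and 2.33 ± 0.495 FPKM and could not be ordered within their SD. Col6a1 averaged 2.04 ± 2.59 FPKM, where the large SD came with the libraries of mice 18 and 39.

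**Figure D1:**
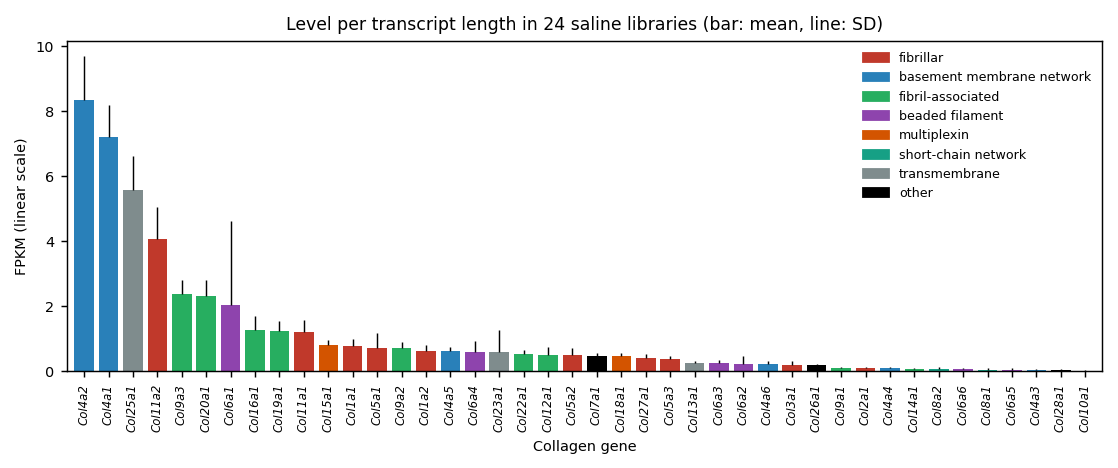
Levels of the 42 collagen genes in the 24 saline libraries, in FPKM, ordered from highest to lowest, with the mean as a bar and the SD as a line. Col4a2 and Col4a1 stand at the top at 8.36 and 7.21 FPKM, and the bar of Col6a1 has an SD of 2.59 FPKM, larger than its mean.

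No collagen was called between saline EZ and saline PIZ at day 3, day 7 or day 14, where 0.0281%, 0% and 0% of all genes were called, or between day 14 and day 3 in the saline EZ, where 0% of all genes were called. In edgeR, 7, 1, 2 and 3 of 41 collagens had an unadjusted p under 0.05 in these 4 comparisons, against 6.17%, 1.52%, 2.42% and 5.78% of all genes, and DESeq2 called 0 in each. The 7 collagens at day 3 were 17.1% of the 41, above the share of all genes. Without mouse 18 there were 2, and without any other of the 4 saline mice 3 to 5. The saline EZ minus PIZ difference of Col6a1 at day 3 was -1.49 with mouse 18 and 0.037 without.

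Kainate injection was followed by higher collagen transcript levels, with the most calls in the EZ during the first week. Tested directly, the kainate effect differed between the sides for 0 of 41 collagens at day 3 and 5 at day 7. The shares of all genes were 0.0655% and 9.89%. Between days 7 and 14 in the EZ it differed for 0 of 41, against 0.271% of all genes. Within the EZ at day 3, 21 of 41 collagens were upregulated and 2 downregulated, against 16.1% and 8.61% of all genes tested. In the EZ at day 7, 26 were upregulated and 2 downregulated, against 20.6% and 11.9% of all genes. The median log2 fold change over the 41 collagens was 1.21 at day 3 and 1.68 at day 7, and over all genes it was 0.03 and 0.01. Within the EZ at day 14, 3 were upregulated and 0 downregulated, against 2.32% and 0.0374% of all genes, and the median was 0.73. In the PIZ, 7 were upregulated and 0 downregulated at day 3, against 7.12% and 1.57% of all genes, and the median was 0.65. At day 7 the PIZ had 1 upregulated and 0 downregulated collagens, against 0.15% and 0.0514% of all genes, and the median was 0.66. In 16 of the 41 every kainate library was above saline in the PIZ at day 7, against 7.63% of all genes. At day 14 no collagen was called in the PIZ, against 0.00935% of all genes upregulated and 0.00468% downregulated, and in edgeR 5 of the 41 had an unadjusted p under 0.05, against 5.97% of all genes, while DESeq2 also called 0.

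The summed level of all collagens was above saline on average in each region and day. In the EZ it averaged 894 ± 242 CPM (SD, n = 4) in kainate-injected mice and 376 ± 12.7 CPM in saline-injected mice at day 3. After 7 days the EZ sums were 1032 ± 584 and 372 ± 49.8 CPM, and at day 14 they were 569 ± 250 and 394 ± 14.3 CPM. In the PIZ the sums were 641 ± 103 against 395 ± 99 CPM at day 3, 574 ± 131 against 364 ± 41.1 CPM at day 7, and 530 ± 42.9 against 425 ± 79.3 CPM at day 14. The spread between kainate-injected mice was widest in the EZ at day 7.

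**Figure D2:**
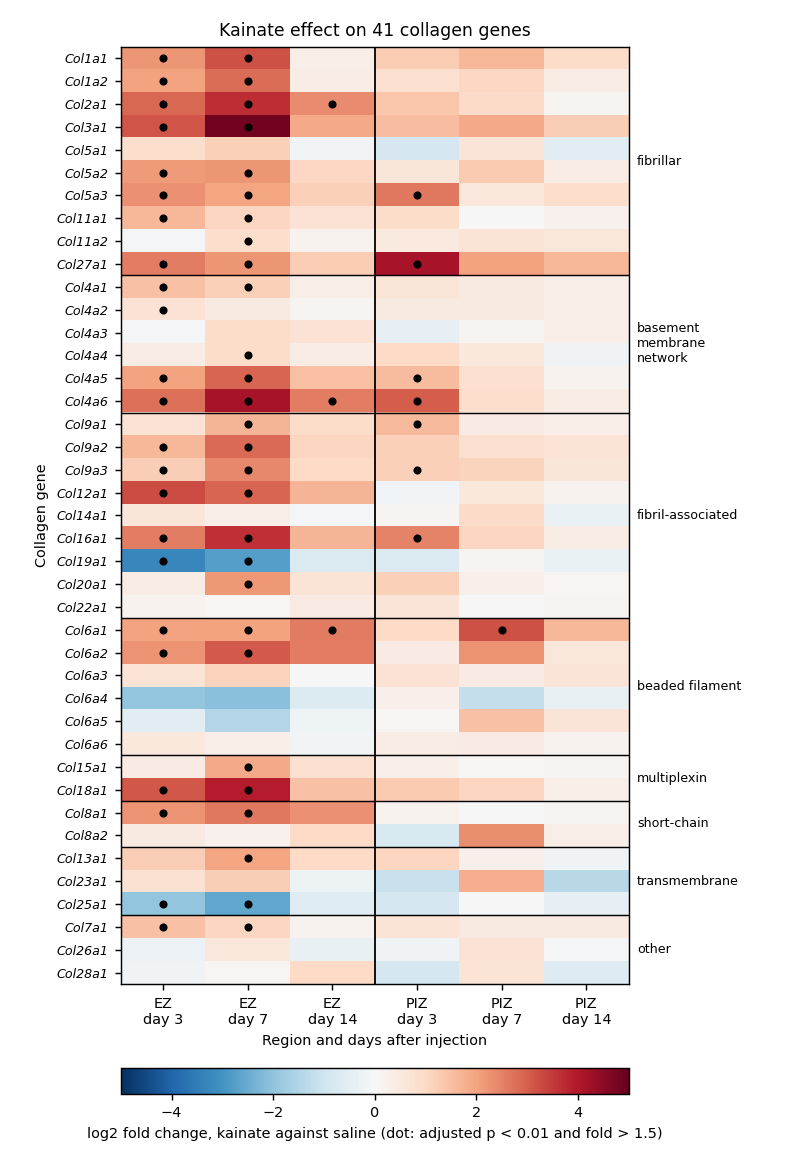
Log2 fold changes of the 41 tested collagens (rows, grouped by structural class) for kainate against saline in the EZ and the PIZ at days 3, 7 and 14 (columns), as colour, with a dot where a gene was called. Dots fill most of the fibrillar rows in the EZ at days 3 and 7, 7 rows carry one in the PIZ at day 3, and the 2 genes called downward are Col19a1 and Col25a1.

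Because the libraries are bulk tissue, more cells of a type and more RNA per cell cannot be told apart. Summed markers of collagen-producing cells moved with the collagens. Of 17 tested fibroblast and meninges markers (18 listed), 7 were upregulated in the EZ at day 3, and 9 were upregulated and 1 downregulated at day 7, against 16.1% of all genes upregulated at day 3 and 20.6% upregulated and 11.9% downregulated at day 7. Their summed level was 212 to 527 CPM against 146 to 208 CPM in saline at day 3, and 183 to 501 CPM against 142 to 164 CPM at day 7. The highest sums belonged to mouse 38 at day 3 (527 CPM) and to mice 21 and 35 at day 7 (501 and 446 CPM), the same libraries that had the highest type I and III levels. At day 14 the EZ sums were 126 to 263 CPM against 146 to 223 CPM, with 0 called, and mouse 27 had the highest. The PIZ sums at day 3 were 155 to 244 CPM against 160 to 196 CPM, with 2 upregulated and 1 downregulated, near the 7.12% and 1.57% of all genes. Of this list, Dpep1 was at 0 in 20 libraries and Slc47a1 in 3, and Pdgfra, which oligodendrocyte precursors also express, and Igf2 were the most abundant.

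Mural cell and endothelial markers were also upregulated in the EZ, where 16.1% and 20.6% of all genes were upregulated at days 3 and 7. Of 12 mural markers, 8 were upregulated at day 3 (341 to 808 CPM summed, against 261 to 284 CPM) and 9 at day 7 (304 to 561 against 211 to 263 CPM). Of 12 endothelial markers, 7 and 8 were upregulated at these days, with sums of 436 to 699 against 348 to 403 CPM at day 3. At day 7 the endothelial sums were 358 to 607 against 321 to 367 CPM and overlapped, with mouse 23 the lowest of the kainate-injected mice. The PIZ at day 3 had 1 mural and 0 endothelial markers called, where 7.12% of all genes were upregulated.

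Markers of glia and of dividing cells moved with the collagens in the PIZ at day 3. Of 8 proliferation markers 8 were upregulated there, against 7.12% of all genes, with sums of 72 to 93.6 CPM against 7.33 to 11.9 CPM. Of 8 microglia markers 8 were upregulated (1014 to 1240 against 314 to 429 CPM), and of 8 astrocyte markers 4 were (8689 to 9518 against 4208 to 5660 CPM). All 3 sums were apart from saline in the PIZ. In the EZ 8 proliferation markers were upregulated at each of days 3 and 7, 7 and 8 microglia markers, and 4 and 5 astrocyte markers, with 1 astrocyte marker downregulated at day 3. The shares of all genes were 16.1% and 20.6% upregulated, and 8.61% downregulated at day 3. The part of these cell types in the collagen results was not tested.

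Among the fibrillar collagens, 8 of 10 were upregulated in the EZ at day 3 and 9 of 10 at day 7, against 16.1% and 20.6% of all genes, with median log2 fold changes of 2.17 and 2.20. Col1a1 and Col1a2 (chromosome 11, 94827050 to 94843868, and chromosome 6, 4504814 to 4541555, GRCm39) encode the 2 chains of type I collagen, the main fibril of skin, bone and scar. In mice 38, 30, 44 and 42 of the EZ at day 3, Col1a1 was at 59.6, 17.1, 15 and 21.5 CPM, and in saline it was at 5.94, 5.44, 5.69 and 7.16 CPM. The groups did not overlap, and the log2 fold change was 2.23 ± 0.53 (SE, adjusted p = 0.000657). At day 7, mice 23, 26, 21 and 35 had 9.64, 9.79, 90.2 and 57.6 CPM and saline 2.59, 5.12, 5.15 and 5.57 CPM. Again every kainate library lay above saline, with mice 21 and 35 several fold above the other pair, and Col1a1 rose by 3.18 ± 0.55 log2 (adjusted p = 7.05e-06).

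Col1a2 moved alongside its partner. In the EZ at day 3 it was at 78.7, 22, 19.2 and 33.4 CPM in kainate-injected mice and at 8.51, 6.92, 9.09 and 13.3 CPM in saline (log2 fold change 2.02 ± 0.49, adjusted p = 0.000793). At day 7 the values were 11.7, 13.2, 89.5 and 68.2 CPM against 4.61, 7.73, 6.84 and 7.43 CPM (2.78 ± 0.50, adjusted p = 1.51e-05). Groups did not overlap on either day, and mouse 38 at day 3 and mice 21 and 35 at day 7 were the highest, as for Col1a1.

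Col3a1 (chromosome 1, 45350698 to 45395840) encodes type III collagen, which forms fine fibrils in vessel walls and early scar tissue and had the largest upward fold change of all collagens at day 7. Within the EZ at day 3 it was at 72.9, 14, 9.77 and 22.4 CPM against 3.51, 2.35, 3.09 and 4.43 CPM, a log2 fold change of 3.15 ± 0.79 (adjusted p = 0.00127). On day 7 it was at 4.59, 7.53, 105 and 64.3 CPM against 1.46, 1.91, 1.48 and 1.55 CPM, a log2 fold change of 4.82 ± 0.87 (adjusted p = 1.5e-05). All kainate libraries were above all saline libraries on both days. Without mouse 38, the day 3 values of Col1a1, Col1a2 and Col3a1 fell to 1.56, 1.40 and 2.21 log2 (adjusted p = 0.0153, 0.0188 and 0.0241) and were no longer called. The day 7 calls held without mouse 21 or mouse 35, with log2 fold changes of 2.48 and 3.0 for Col1a1, 2.23 and 2.53 for Col1a2, and 3.99 and 4.61 for Col3a1 in turn. With only the 8 compared libraries in the fit, Col1a1 (adjusted p = 0.0112) and Col1a2 (adjusted p = 0.0116) were not called at day 7.

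At day 14 the fibrillar collagens of 3 of the 4 kainate-injected mice were near saline levels in the EZ. Col3a1 was at 23.2 CPM in mouse 27 and at 1.91, 1.51 and 2.42 CPM in mice 36, 14 and 40, against 2.13, 2.75, 1.99 and 0.935 CPM in saline. The log2 difference was 1.91 ± 0.81 (adjusted p = 0.19) with all mice and 0.01 without mouse 27. Col1a1 in the same mice was at 17.2, 3.65, 4.54 and 5.93 CPM against 5.39, 9.54, 5.66 and 4.43 CPM, and Col1a2 at 24.4, 7.59, 5.04 and 9.94 CPM against 6.63, 13.7, 9.46 and 6.55 CPM. Mouse 27 was the highest in both, and the other 3 overlapped with saline.

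In the PIZ, type I and III collagen was not called on any day by edgeR with all 48 libraries in the fit or by DESeq2, and the difference from the EZ effect was not called on days 3 and 7. With only the 8 compared libraries in the fit, Col1a1 (1.25, adjusted p = 0.00234) and Col3a1 (1.56, adjusted p = 0.0095) were called at day 3, and Col1a1, Col1a2 and Col3a1 at day 7. The EZ effect minus the PIZ effect was 0.97 ± 0.73 for Col1a1, 1.21 ± 0.67 for Col1a2 and 1.59 ± 1.10 for Col3a1 at day 3 (adjusted p = 0.489, 0.341 and 0.444), and 1.51 ± 0.75, 1.75 ± 0.69 and 2.91 ± 1.2 at day 7 (adjusted p = 0.124, 0.0527 and 0.0643). At day 3 Col1a1 was at 7.35, 9.18, 16.9 and 10.3 CPM against 4.08, 4.64, 4.87 and 4.69 CPM (log2 difference 1.26 ± 0.53, adjusted p = 0.0781). Col1a2 was at 9.86, 11.1, 21.4 and 12.6 CPM against 7.48, 8.45, 8.68 and 6.61 CPM (0.82 ± 0.48, adjusted p = 0.224). Col3a1 was at 5.94, 7.25, 10.6 and 2.96 CPM against 2.87, 2.38, 2.65 and 1.18 CPM (1.56 ± 0.80, adjusted p = 0.154). In all 3 genes every kainate library was above every saline library (exact permutation p = 0.0286, n = 4), yet none passed the test across all genes with all 48 libraries. Of all genes 17.1% had every kainate library above saline in the PIZ at day 3, and of the 41 collagens 17 did. At day 7 Col1a1 was at 14.5, 10.6, 8.96 and 8.98 CPM against 3.12, 3.07, 4.38 and 2.96 CPM (1.67 ± 0.54, adjusted p = 0.114), again without overlap and not called.

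The PIZ values of the other chains at days 7 and 14 were as follows. Col1a2 at day 7 was at 13.3, 13.1, 12.9 and 10.6 CPM against 4.81, 5.34, 7.78 and 6.65 CPM, and Col3a1 was at 7.2, 4.93, 3.35 and 3.74 CPM against 1.19, 1.31, 1.53 and 1.09 CPM. Both were higher in every kainate library, with log2 differences of 1.02 ± 0.49 (adjusted p = 0.326) and 1.91 ± 0.86 (adjusted p = 0.291). At day 14 mouse 27 was again the highest, with 22.7 CPM of Col1a1, 22.5 CPM of Col1a2 and 16.3 CPM of Col3a1, while the other 3 mice had 5.44 to 8.35, 7 to 10 and 1.81 to 4.04 CPM. Saline libraries at that day had 4.68 to 7.38, 7.1 to 12.7 and 1.21 to 5.3 CPM.

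**Figure D3:**
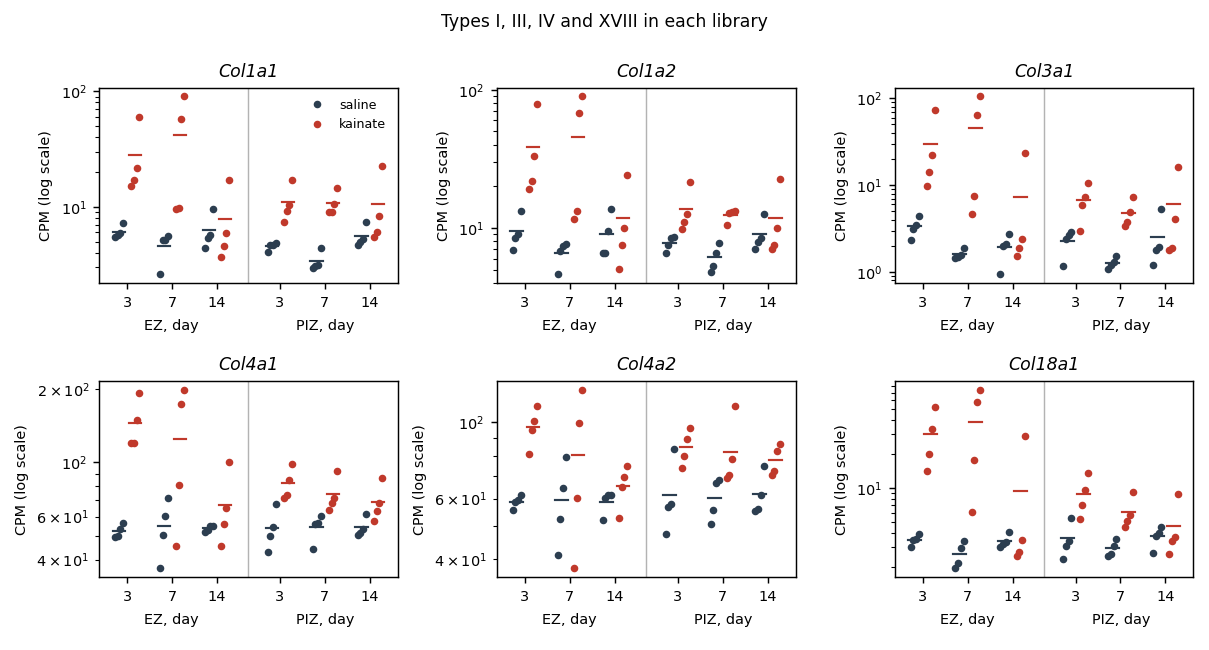
CPM (log axis) of Col1a1, Col1a2, Col3a1, Col4a1, Col4a2 and Col18a1 in each library by region, injection and day, where points are the 4 mice of a group and the line is their mean. Mice 21 and 35 at day 7 and mouse 27 at day 14 stand above the other kainate libraries of the EZ for Col1a1 and Col3a1, and the points of Col4a2 lie closest together.

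Other fibrillar chains rose as well. Col2a1, the chain of cartilage collagen, was at 15.6, 5.85, 4.08 and 11 CPM in the EZ at day 3 against 1.8, 1.06, 1.1 and 1.02 CPM (log2 fold change 2.87 ± 0.56, adjusted p = 7.67e-05). At day 7 it was at 3.06, 9.01, 18.6 and 16.5 CPM against 0.565, 0.955, 0.919 and 1.19 CPM (3.70 ± 0.59, adjusted p = 2.1e-06). Groups were apart on both days. At day 14 it was called upward at 2.35 ± 0.58 (adjusted p = 0.00996), with 14.2 CPM in mouse 27, 1.13 to 1.52 CPM in the other kainate-injected mice and 0.599 to 1.13 CPM in saline, and without mouse 27 the value was 0.57 and not called. In the PIZ at day 3 its kainate libraries were at 1.25 to 2.1 CPM, all above saline at 0.39 to 0.82 CPM, and it was called only with the 8 compared libraries in the fit (1.38, adjusted p = 0.00327). Later the PIZ groups overlapped, with 0.935 to 2.69 CPM against 0.383 to 1.36 CPM at day 7 and 0.897 to 1.81 CPM against 0.834 to 1.54 CPM at day 14.

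Col27a1 (chromosome 4, 63132241 to 63253228) encodes a fibrillar chain with a shorter helix, best known from cartilage, and it was the collagen with the largest fold change in the PIZ. At day 3 it was at 64.5, 123, 96.5 and 16.7 CPM in the PIZ of mice 38, 30, 44 and 42, against 4.91, 3.99, 4.78 and 3.51 CPM in saline. It rose by 4.13 ± 0.57 log2 there (adjusted p = 3.36e-06). In the EZ of the same mice it was at 22.7, 44.7, 81.9 and 13.9 CPM against 7.83, 7.66, 5.65 and 6.58 CPM, a log2 fold change of 2.56 ± 0.53 (adjusted p = 0.000157). On both sides mouse 42 was the lowest of the kainate-injected mice and still above all saline libraries.

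At day 7, Col27a1 was at 18.2, 24.9, 39.6 and 28.8 CPM in the EZ against 5.41, 6.3, 5.05 and 7.48 CPM (2.20 ± 0.53, adjusted p = 0.000576), and at 23.9, 15.2, 14.4 and 13.7 CPM in the PIZ against 3.91, 3.48, 5.26 and 3.89 CPM (2.02 ± 0.54, adjusted p = 0.0487, not called by edgeR but called by DESeq2). At day 14 mouse 27 had 34.9 CPM in the EZ and 45 CPM in the PIZ, and the other kainate-injected mice had 7.77 to 9.93 and 6.62 to 7.4 CPM. Saline libraries had 5.75 to 6.59 CPM in the EZ and 4.07 to 6.76 CPM in the PIZ. Mouse 27 was thus high on both sides for this gene.

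Col5a3, a chain of type V collagen that helps to start fibrils, rose on both sides at day 3. In the EZ it was at 12.7, 16.7, 21.4 and 10.2 CPM against 4.68, 2.12, 2.21 and 3.56 CPM (2.28 ± 0.44, adjusted p = 6.26e-05), and in the PIZ at 9.25, 18.6, 18.9 and 6.63 CPM against 2.38, 1.73, 2.92 and 1.55 CPM (2.64 ± 0.45, adjusted p = 5.86e-05). Neither side had overlapping groups. At day 7 it was called in the EZ (1.98 ± 0.44, adjusted p = 0.000229) with values of 2.65, 7.8, 18.7 and 14.6 CPM against 2.21, 3.08, 3.27 and 2.53 CPM, where mouse 23 overlapped with saline, and in the PIZ it was at 2.85 to 5.02 CPM against 1.93 to 3.07 CPM (0.53 ± 0.45, adjusted p = 0.62).

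Of the remaining fibrillar chains, Col5a2, the usual partner of Col5a1, was upregulated in the EZ at both days (2.12 ± 0.46 and 2.20 ± 0.46). Col11a1 was upregulated at day 3 (1.66 ± 0.36) and day 7 (1.08 ± 0.35), and Col11a2 at day 7 (0.86 ± 0.19) but not at day 3 (-0.11). Col5a1 had log2 differences of 0.90 and 1.17 in the EZ and was called on no day.

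Type IV collagen, the scaffold of basement membranes, has 6 genes arranged in 3 head-to-head pairs. In the EZ, where the median of the 6 was 1.10 at day 3 and 1.06 at day 7, 4 of 6 were called upward at day 3 and 4 of 6 at day 7, 1 at day 14, and in the PIZ 2 at day 3 and none later. The shares of all genes called upward were 16.1%, 20.6% and 2.32% at these days in the EZ, against 7.12% for day 3 of the PIZ. The chains of the ubiquitous network, Col4a1 and Col4a2 (chromosome 8, 11248423 to 11362826 and 11362471 to 11499287) were the most abundant. Col4a1 was at 193, 120, 120 and 149 CPM in the EZ at day 3 against 53.4, 49.5, 56.5 and 49.9 CPM (1.47 ± 0.26, adjusted p = 2.17e-05). At day 7 mice 23, 26, 21 and 35 had 45.3, 80.6, 198 and 173 CPM against 36.9, 50.6, 71.3 and 60.4 CPM. It was called (1.18 ± 0.26, adjusted p = 0.000206) although the groups overlapped (exact permutation p = 0.143, n = 4).

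Col4a2 was at 111, 80.7, 101 and 95 CPM in the EZ at day 3 against 55.6, 59.4, 61.3 and 58.6 CPM (0.72 ± 0.21, adjusted p = 0.00517), and this call was lost without mouse 38, 29, 37, 44, 42 or 41 (adjusted p = 0.0112 to 0.0230). By day 7 it was at 37.7, 60.1, 124 and 99.4 CPM against 41.1, 52.5, 79.3 and 64.3 CPM, overlapped with saline and was not called (0.44 ± 0.21, adjusted p = 0.0764). At day 14 both genes overlapped with saline in the EZ, with 45.4 to 101 CPM of Col4a1 against 51.7 to 55.1 CPM and 52.7 to 74.6 CPM of Col4a2 against 52.1 to 61.4 CPM. In the PIZ neither was called with all libraries in the fit, and Col4a1 was called at day 3 with only the 8 compared libraries (0.61, adjusted p = 0.0084). Col4a1 there was at 71.2 to 98.4 CPM against 42.9 to 67.5 CPM at day 3, 64.1 to 92.4 against 44.2 to 60.3 CPM at day 7 and 57.8 to 86.5 against 50.7 to 61.7 CPM at day 14. Col4a2 was at 73.7 to 96, 68.8 to 111 and 70.2 to 86.7 CPM against 47.4 to 83.3, 50.6 to 68 and 55.3 to 74.5 CPM.

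The X-linked pair Col4a5 and Col4a6 (X, 140258354 to 140472231 on the plus strand and 139948399 to 140257072 on the minus strand) makes minor networks, such as those of the kidney, eye and smooth muscle, and had larger fold changes than the ubiquitous pair. Col4a6 was at 28.4, 17.3, 18.4 and 20.1 CPM in the EZ at day 3 against 4.01, 2.58, 2.16 and 3.56 CPM (2.77 ± 0.52, adjusted p = 4.5e-05). At day 7 it was at 10, 16.5, 35 and 41.5 CPM against 1.04, 1.87, 1.12 and 1.86 CPM (4.12 ± 0.56, adjusted p = 1.8e-07), the second largest rise of that day. In the PIZ at day 3 it was at 8.81, 16.1, 13.4 and 8.06 CPM against 1.8, 1.47, 1.21 and 1.14 CPM (3.05 ± 0.55, adjusted p = 0.000115). All 3 comparisons were without overlap.

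In the PIZ at day 7 Col4a6 was at 2.57, 2.92, 2.35 and 2.69 CPM against 1.14, 1.26, 1.75 and 1.66 CPM (0.86 ± 0.56, adjusted p = 0.498), and at day 14 at 1.04 to 3.68 CPM against 1.32 to 2.08 CPM. In the EZ at day 14 it was called (2.56 ± 0.55, adjusted p = 0.00366) with 24.7 CPM in mouse 27, 1.51 to 2.76 CPM in the other 3 and 0.837 to 2.1 CPM in saline. Without mouse 27 that value was 0.72 and not called.

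Col4a5 rose in the same comparisons at days 3 and 7. In the EZ it was at 43.6, 28.7, 21.9 and 29.8 CPM against 9.5, 7.19, 6.05 and 7.79 CPM at day 3 (2.02 ± 0.39, adjusted p = 6.98e-05) and at 18.3, 22.5, 60.2 and 57.4 CPM against 4.8, 5.47, 5.1 and 5.57 CPM at day 7 (2.92 ± 0.41, adjusted p = 2.71e-07). In the PIZ at day 3 it was at 13.5, 22.4, 19.4 and 12.3 CPM against 7.58, 5.59, 4.87 and 4.83 CPM (1.57 ± 0.39, adjusted p = 0.00365), and this call was lost without mouse 30, 37, 44, 18 or 41 (adjusted p = 0.0120 to 0.0184). None of these 3 comparisons had overlapping groups. At day 14 the EZ had 44.8 CPM in mouse 27 and 6.52 to 7.36 CPM in the others, against 4.48 to 7.14 CPM. In the PIZ Col4a5 was at 6.69 to 9.53 CPM against 3.76 to 5.37 CPM at day 7 and at 4.8 to 8.6 CPM against 5.3 to 6 CPM at day 14.

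Of the third pair, whose chains form the mature basement membrane of the kidney filter, Col4a4 was upregulated in the EZ at day 7 (0.93 ± 0.29), and Col4a3 was called on no day.

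The genes of a pair start close to each other, and the bases before the start of the X-linked pair and of 2 fibrillar genes are shown for comparison, because these genes moved together in the EZ. Each is the 250 bases 5′ of the RefSeq start on GRCm38.p6, read 5′ to 3′ on the strand of the gene, with matches on either strand to CCAAT (the CCAAT box), to TATAAA (the TATA box), to GGGCGG (the GC box) and to CAGACA (a core of Smad binding sites) in capitals. The windows are chrX:141475169-141475418 (plus) for Col4a5, chrX:141474077-141474326 (minus) for Col4a6, chr6:4505368-4505617 (plus) for Col1a2 and chr1:45311288-45311537 (plus) for Col3a1.
Col4a5: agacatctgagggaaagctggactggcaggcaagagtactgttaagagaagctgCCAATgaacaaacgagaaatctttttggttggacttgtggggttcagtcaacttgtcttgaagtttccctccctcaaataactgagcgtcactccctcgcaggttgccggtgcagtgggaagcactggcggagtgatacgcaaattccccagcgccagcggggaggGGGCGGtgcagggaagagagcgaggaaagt
Col4a6: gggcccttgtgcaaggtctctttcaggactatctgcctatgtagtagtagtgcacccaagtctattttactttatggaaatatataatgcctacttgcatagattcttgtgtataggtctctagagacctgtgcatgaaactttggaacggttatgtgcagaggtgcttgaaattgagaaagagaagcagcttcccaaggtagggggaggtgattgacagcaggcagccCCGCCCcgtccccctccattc
Col1a2: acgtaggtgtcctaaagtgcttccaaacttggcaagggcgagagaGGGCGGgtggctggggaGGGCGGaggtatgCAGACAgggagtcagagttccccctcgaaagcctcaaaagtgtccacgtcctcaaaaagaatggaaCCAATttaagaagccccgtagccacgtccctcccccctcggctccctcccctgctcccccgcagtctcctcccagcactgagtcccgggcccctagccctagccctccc
Col3a1: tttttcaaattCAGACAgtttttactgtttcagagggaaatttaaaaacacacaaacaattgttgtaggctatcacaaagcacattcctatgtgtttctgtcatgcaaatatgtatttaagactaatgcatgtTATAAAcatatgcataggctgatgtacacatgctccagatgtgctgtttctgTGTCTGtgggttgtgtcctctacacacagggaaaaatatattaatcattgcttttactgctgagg
Col4a5 and Col4a6 start 1343 bases apart on opposite strands, and Col4a1 and Col4a2 start 21 bases apart. Upstream of Col1a2 there were 2 matches to GGGCGG and 1 each to CCAAT and CAGACA, and upstream of Col3a1 there were 2 to CAGACA and 1 to TATAAA. Windows from 250 bases before to 50 after the start were matched for 33 of the 42 genes (36 windows). Of these 36, 23 (63.9%) held GGGCGG, against 35.7% of all 32851 windows, 12 (33.3%) held CCAAT, against 37.4%, 9 (25%) held CAGACA, against 21%, and 4 (11.1%) held TATAAA, against 13.6%. A match is a description of the letters in these windows.

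The multiplexins Col15a1 and Col18a1 encode proteoglycan-like collagens of basement membranes, and type XVIII gives rise to endostatin. Col18a1 (chromosome 10, 76888012 to 77002390) was at 52.7, 20.1, 14.3 and 33.1 CPM in the EZ at day 3 against 3.87, 3, 3.49 and 3.46 CPM (3.12 ± 0.60, adjusted p = 5.93e-05). On day 7 it was at 6.07, 17.8, 74 and 58 CPM against 1.93, 2.17, 2.91 and 3.35 CPM (3.91 ± 0.62, adjusted p = 2.2e-06). Both days were without overlap, the order of the mice was that of Col3a1, and without mouse 21 or mouse 35 the day 7 value was 3.4 or 3.66. At day 14 mouse 27 had 28.9 CPM and the others 2.47 to 3.43 CPM, against 2.97 to 4.05 CPM in saline. In the PIZ the values were 5.25 to 13.5 CPM against 2.32 to 5.43 CPM at day 3 (1.31 ± 0.58, adjusted p = 0.0967), 4.47 to 9.23 CPM against 2.49 to 3.51 CPM at day 7, and 2.58 to 8.79 CPM against 2.64 to 4.48 CPM at day 14. Col15a1 was upregulated in the EZ at day 7 only among the days tested (1.88 ± 0.38), with 0.41 at day 3, and the difference between these days was not called.

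The fibril-associated collagens split in direction, with 4 of 9 upregulated and 1 downregulated in the EZ at day 3 and 6 and 1 at day 7, against 16.1% and 20.6% of all genes upregulated and 8.61% and 11.9% downregulated, and medians of 0.73 and 2.16. Col12a1, which binds type I fibrils in tendon and wound tissue, was at 124, 36.7, 14.2 and 66.9 CPM in the EZ at day 3 against 5.99, 7.33, 5.16 and 6.48 CPM (3.28 ± 0.62, adjusted p = 5.4e-05), the largest rise of that day. At day 7 it was at 12.4, 26.6, 51.3 and 82.3 CPM against 3.2, 6.04, 5.36 and 8.36 CPM (2.91 ± 0.62, adjusted p = 0.000136). In the PIZ at day 3 it was at 9.94, 11.4, 8.23 and 5.63 CPM against 7.97, 9.71, 14.7 and 6.47 CPM, with overlapping groups (-0.14 ± 0.59, adjusted p = 0.895). The later PIZ values were 7.3 to 22 CPM against 5.05 to 10.8 CPM at day 7 and 10.6 to 13.8 CPM against 5.23 to 20.4 CPM at day 14. Within the EZ at day 14 mouse 27 had 60.5 CPM and the others 4.05 to 9.63 CPM, against 4.57 to 7.73 CPM.

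Col16a1 (chromosome 4, 129941154 to 129993076), a fibril-associated collagen of many connective tissues, rose on both sides at day 3. In the EZ it was at 95.8, 77.6, 67.1 and 78.1 CPM against 19.9, 11.7, 8.65 and 13.7 CPM (2.56 ± 0.44, adjusted p = 1.6e-05), and in the PIZ at 38.9, 55.1, 43.7 and 29.8 CPM against 7.34, 6.98, 9.7 and 6.06 CPM (2.48 ± 0.45, adjusted p = 0.000129). On day 7 the EZ had 34.7, 67, 159 and 152 CPM against 7.39, 8.08, 6.89 and 10.8 CPM (3.64 ± 0.47, adjusted p = 7.09e-08). The PIZ at day 7 had 11.9, 13.4, 19.2 and 15.4 CPM against 6.04, 7.31, 8.33 and 6.96 CPM (1.07 ± 0.45, adjusted p = 0.252). Every kainate library was above saline in these 4 comparisons. At day 14 the EZ had 93.5 CPM in mouse 27 and 10.2 to 13 CPM in the others against 8.23 to 11.3 CPM (1.69 ± 0.44, adjusted p = 0.0151, not called by edgeR but called by DESeq2), and the PIZ 9.61 to 16.1 CPM against 7.3 to 12.2 CPM.

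The type IX chains, which decorate cartilage fibrils, rose by smaller folds. Col9a2 was at 9.76, 5.89, 6.1 and 8.31 CPM in the EZ at day 3 against 2.21, 2.21, 2.43 and 2.63 CPM (1.66 ± 0.38, adjusted p = 0.000416). After 7 days it was at 8.26, 8.93, 21.2 and 19.3 CPM against 2.17, 2, 2.3 and 1.6 CPM (2.84 ± 0.39, adjusted p = 1.85e-07). The groups were apart on both days. In the PIZ it was at 2.87 to 6.11 CPM against 1.58 to 2.3 CPM at day 3 (1.17 ± 0.38, adjusted p = 0.0234), at 2.9 to 4.27 CPM against 1.78 to 2.13 CPM at day 7 and at 2.45 to 4.73 CPM against 1.42 to 3.44 CPM at day 14, and in the EZ at day 14 at 2.25 to 14.2 CPM against 2.12 to 4.1 CPM.

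Col9a3 was upregulated in the EZ at day 3 (1.21 ± 0.26) and day 7 (2.39 ± 0.27, adjusted p = 2.28e-08, the smallest of any collagen) and in the PIZ at day 3 (1.2 ± 0.26, adjusted p = 0.000957). Col9a1 was upregulated in the EZ at day 7 (1.68 ± 0.33) and in the PIZ at day 3 (1.61 ± 0.39, adjusted p = 0.00271), where the call was lost without mouse 44 or 41 (adjusted p = 0.0118 and 0.0163). Col20a1 was upregulated in the EZ at day 7 (2.16 ± 0.41). Col14a1 and Col22a1 were called in no comparison of kainate with saline.

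Col19a1 and Col25a1, both known from neurons, were the only collagens called downward for kainate against saline by edgeR with all 48 libraries in the fit. Type XIX collagen marks interneuron populations and takes part in synapse formation in the hippocampus, and type XXV was first known as a component of amyloid plaques. Col19a1 (chromosome 1, 24296772 to 24627011) was at 0.421, 0.268, 4.08 and 0.943 CPM in the EZ at day 3 against 12.2, 17.4, 13.1 and 11.8 CPM (-3.28 ± 0.59, adjusted p = 2.67e-05). At day 7 it was at 2.75, 3.98, 1.53 and 0.124 CPM against 9.46, 15.4, 14.8 and 16.3 CPM (-2.74 ± 0.57, adjusted p = 0.000104). Every kainate library was below every saline library on both days. At day 14 mouse 27 was at 0.498 CPM and mice 36, 14 and 40 at 11.9, 15.1 and 8.9 CPM, against 13.8 to 16.1 CPM (-0.73 ± 0.52, adjusted p = 0.481).

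In the PIZ, Col19a1 was at 9.94, 8.4, 12.1 and 10.7 CPM at day 3 against 16.7, 15.7, 23.9 and 12.3 CPM, lower in every kainate library but not called (-0.74 ± 0.51, adjusted p = 0.307). By day 7 it was at 11, 15, 24.6 and 19.4 CPM against 9.81, 19.3, 18 and 16.2 CPM, and at day 14 at 12.3 to 15.8 CPM against 14 to 28.6 CPM, with overlapping groups on both days. Mouse 39 had the highest saline value at day 14.

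Col25a1 (chromosome 3, 129925150 to 130393532) was at 7.65, 8.99, 38.7 and 8.45 CPM in the EZ at day 3 against 54.1, 76, 57.8 and 61.5 CPM (-1.97 ± 0.55, adjusted p = 0.00341). This call was lost without mouse 38, 30, 37 or 42 (adjusted p = 0.0114 to 0.0226) and, by a small margin, with only the 8 compared libraries in the fit (adjusted p = 0.01001). Mouse 44 was the highest of the kainate-injected mice, as for Col19a1. At day 7 it was at 12.8, 26.1, 5.02 and 0.954 CPM against 70.7, 64.5, 61 and 73.3 CPM (-2.58 ± 0.57, adjusted p = 0.000207). Mice 21 and 35, the highest for type I and III collagen, were the lowest for Col25a1 and Col19a1. At day 14 mouse 27 was at 2.36 CPM and mice 36, 14 and 40 at 66.5, 68.5 and 47.5 CPM, against 62.8 to 76.2 CPM (-0.59 ± 0.53, adjusted p = 0.593).

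In the PIZ, Col25a1 was at 39.7, 38.7, 55.2 and 55.1 CPM at day 3 against 70.4, 80.3, 107 and 79.6 CPM (-0.84 ± 0.53, adjusted p = 0.26). The groups did not overlap, and the difference was not called with all libraries in the fit but was with only the 8 compared (-0.84, adjusted p = 0.00244). At day 7 the PIZ values were 39.7 to 101 CPM against 58 to 81.2 CPM and at day 14 45.1 to 73.6 CPM against 67 to 113 CPM. Some neuronal markers were downregulated and none was upregulated in the EZ at these days. Of 8 interneuron markers 5 were downregulated at day 3 and 4 at day 7, with sums of 294 to 467 CPM against 423 to 590 CPM and of 223 to 515 against 448 to 558 CPM. Of 8 CA pyramidal markers 3 and 5 were downregulated, and of 8 granule cell markers 3 and 3, where 8.61% and 11.9% of all genes were downregulated at these days. The granule cell sums were 531 to 780 CPM against 876 to 1065 CPM at day 3 and overlapped at day 7, at 227 to 1045 CPM against 768 to 1146 CPM. The part of these cell types in the result was not tested.

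**Figure D4:**
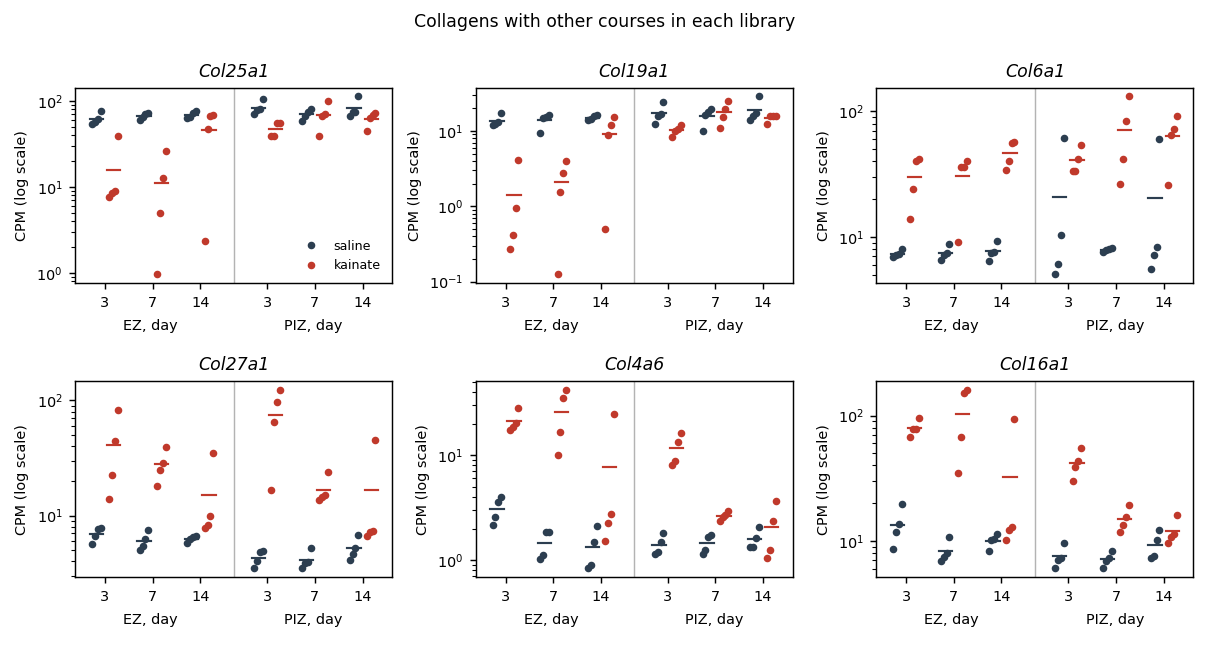
CPM (log axis) of Col25a1, Col19a1, Col6a1, Col27a1, Col4a6 and Col16a1 in each library by region, injection and day, where points are the 4 mice of a group and the line is their mean. Col25a1 and Col19a1 lie below saline in the EZ at days 3 and 7, Col6a1 has saline PIZ points at 61.1 and 60.7 CPM, and Col27a1 in the PIZ at day 3 reaches 123 CPM.

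Type VI collagen forms beaded filaments that link cells to the matrix, in which the Col6a1 and Col6a2 chains join another chain. Col6a1 (chromosome 10, 76543440 to 76562283) was, with Col2a1 and Col4a6, 1 of 3 collagens called at every day in the EZ. At day 3 it was at 40.2, 13.8, 41.6 and 24.2 CPM against 7.97, 7.19, 7.24 and 6.87 CPM (2.03 ± 0.63, adjusted p = 0.00719), and at day 7 at 9.08, 36, 40.3 and 36.3 CPM against 7.39, 8.81, 6.58 and 7.17 CPM (2.02 ± 0.63, adjusted p = 0.00587). At day 14 mice 27, 36, 14 and 40 had 40, 56.5, 56.9 and 34.3 CPM against 6.43, 9.34, 7.51 and 7.38 CPM (2.61 ± 0.63, adjusted p = 0.00868). The day 3 call was lost without mouse 38, 29, 37, 44, 42 or 41 (adjusted p = 0.0107 to 0.0257), and the day 7 call without mouse 26, 89, 33, 21, 35, 20 or 34 (adjusted p = 0.0132 to 0.0194). All 3 days were without overlap, and at day 14 mouse 27 was not the highest. The day 14 call was lost when mouse 27, 36, 14, 24, 28, 39 or 31 was left out, and without mouse 27 the value was 2.68 (adjusted p = 0.127).

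In the PIZ, Col6a1 was at 33.4, 33.3, 54.1 and 42.1 CPM at day 3 against 6.03, 10.4, 61.1 and 5.01 CPM, where the saline library of mouse 18 was the highest of all 8 (0.98 ± 0.59, adjusted p = 0.235). Without mouse 18 the log2 fold change was 2.51 ± 0.60 (adjusted p = 0.00368). On day 7 it was at 42.1, 83.4, 132 and 26.5 CPM against 7.98, 7.81, 8.11 and 7.63 CPM and was the 1 collagen called there (3.17 ± 0.65, adjusted p = 0.00901). This call was lost when mouse 26, 21, 89, 33, 20 or 34 was left out, and without mouse 21 the value was 2.68 (adjusted p = 0.0203). At day 14 it was at 25.9, 71.8, 64.7 and 92.2 CPM against 7.11, 8.34, 60.7 and 5.5 CPM (1.64 ± 0.60, adjusted p = 0.576), and without mouse 39 the difference was 3.18 ± 0.62 (adjusted p = 0.0357, not called). Apart from mice 18 and 39, all PIZ kainate libraries were above all PIZ saline libraries of the same day.

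Col6a2 was upregulated in the EZ at day 3 (2.26 ± 0.64, adjusted p = 0.00373) and day 7 (3.08 ± 0.66), and at day 14 it was 2.55 ± 0.65 (adjusted p = 0.0129, not called by edgeR but called by DESeq2) with 30.6 CPM in mouse 27 and 4.78 to 6.6 CPM in the others. Of the alternative partner chains, Col6a3, Col6a4, Col6a5 and Col6a6 were called on no day. Col6a4 had log2 differences of -1.96 ± 0.80 (adjusted p = 0.0394) at day 3 and -2.07 ± 0.80 (adjusted p = 0.0267) at day 7 in the EZ, and with only the 8 compared libraries in the fit it was called downward at day 3.

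Among the remaining types, Col8a1, a short-chain network collagen of vessel walls, was upregulated in the EZ at day 3 (2.24 ± 0.62) and day 7 (2.62 ± 0.69), and Col7a1, the anchoring fibril of skin, at day 3 (1.45 ± 0.31) and day 7 (1.06 ± 0.31). Col13a1, a transmembrane collagen, was upregulated at day 7 (1.97 ± 0.48). Col8a2, Col23a1, Col26a1 and Col28a1 were called on no day. Col10a1, which was too low to test, was at 0.807 ± 0.626 CPM (SD, n = 4) in the EZ of kainate-injected mice at day 7 and at 0.0109 ± 0.0217 CPM in saline. Its counts there were 7, 7, 25 and 39 after kainate and at most 1 in saline. It met the count minimum through 4 EZ kainate libraries alone, so this difference follows from how it was chosen.

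The effect of kainate was then compared between the EZ and the PIZ. At day 3 no collagen differed between the sides, where 0.0655% of all genes were called. In edgeR 12 of 41 had an unadjusted p under 0.05, against 17.9% of all genes, and DESeq2 called Col12a1. The EZ effect minus the PIZ effect of Col12a1 was 3.41 ± 0.85 (adjusted p = 0.0437), and that of Col27a1, which changed more in the PIZ, was -1.57 ± 0.73 (adjusted p = 0.248). At day 14 no collagen differed, with 5 at an unadjusted p under 0.05 in edgeR, against 7.30% of all genes, and 0 called by DESeq2, where 0% of all genes were called.

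At day 7 the effect differed for 5 of 41 collagens, against 9.89% of all genes. It was larger in the EZ for Col4a6 (3.26 ± 0.79, adjusted p = 0.004), Col16a1 (2.58 ± 0.63, adjusted p = 0.0043), Col4a5 (2.10 ± 0.56, adjusted p = 0.00714) and Col9a2 (2.03 ± 0.54, adjusted p = 0.00706). It was more negative in the EZ for Col19a1 (-2.89 ± 0.76, adjusted p = 0.00632). With mouse as a block, which uses that both sides came from the same animals, Col16a1 was called (2.38, adjusted p = 0.00943). The blocked values of Col4a6 (3.09, adjusted p = 0.0108), Col9a2 (1.94, adjusted p = 0.0147), Col4a5 (1.93, adjusted p = 0.0234) and Col19a1 (-3.05, adjusted p = 0.03) were not called. The count was 0 without mouse 89, 21, 35, 20 or 34, 1 without mouse 33, 9 without mouse 26 and 11 without mouse 23.

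**Figure D5:**
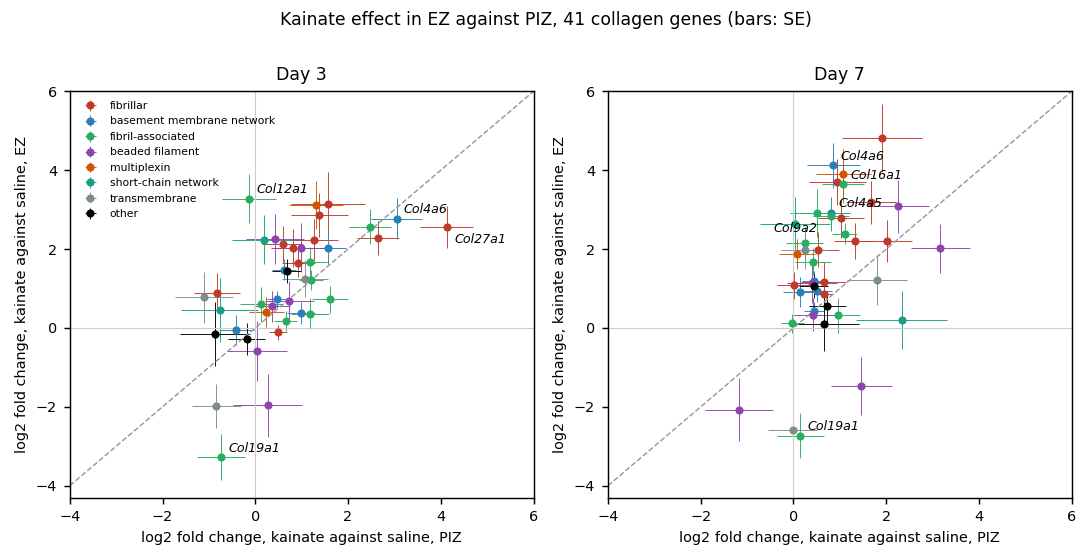
Log2 fold change (kainate against saline) in the PIZ on the horizontal axis and in the EZ on the vertical axis for the 41 tested collagens. Day 3 and day 7 are shown, with SE as bars and equality as a dashed line. At day 3 Col27a1 lies below the line. At day 7 most large rises in the EZ lie above it, with Col4a6 at 4.12 in the EZ and 0.86 in the PIZ. Col6a1 (2.02 in the EZ and 3.17 in the PIZ) lies below it at day 7, as do Col19a1 and Col25a1, which fell in the EZ.

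Changes of the kainate effect between days in the EZ were tested too. From day 3 to day 7 no collagen was called, where 0.145% of all genes were, and 5 had an unadjusted p under 0.05 in edgeR, against 12% of all genes (0 called by DESeq2). From day 7 to day 14 none was called, where 0.271% of all genes were, with 15 of 41 at an unadjusted p under 0.05 in edgeR, a share near the 33.1% of all genes, and DESeq2 called Col1a1, Col1a2 and Col9a3. Leaving out mouse 27 gave 17 called collagens between day 7 and day 14, and the share of all genes called in that fit was not recorded. Of these, 15 had a smaller effect at day 14, among them Col3a1 (-4.81), Col18a1 (-4.15), Col1a1 (-3.58), Col4a6 (-3.41) and Col16a1 (-3.40), and Col19a1 (2.41) and Col25a1 (2.39) changed in the other direction. The median over 41 collagens between these days was -0.90 with mouse 27 and -1.55 without.

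Without mouse 27, 0 of 41 collagens were called in the EZ at day 14, the median log2 difference was 0.05, and 25 of 41 were positive. The log2 difference of Col2a1 was 2.35 with it and 0.57 without, and that of Col4a6 2.56 and 0.72, whereas Col6a1 kept its size (2.61 with mouse 27 and 2.68 without). The calls of Col2a1 and Col4a6 were also lost without mouse 24, 28, 39 or 31, and that of Col6a1 when any 1 of 6 other mice was left out. In the PIZ the median was 0.32 with it and 0.19 without, and 0 were called either way. The count in the EZ at day 3 was 15 without mouse 38, where the calls of Col25a1, Col4a2, Col6a1, Col6a2 and Col8a1 were lost along with type I and III. The calls of Col4a4 and Col11a1 in the EZ at day 7 were each lost without any 1 of 5 mice, that of Col7a1 without any 1 of 3 and that of Col8a1 without mouse 35. At day 3 Col8a1 was also lost without mouse 29 or 37, and Col6a2 without mouse 37. When only the 8 libraries compared were in the fit, the EZ count at day 7 was 17 rather than 28, the EZ count at day 14 was 0, the PIZ count at day 3 was 16 and the PIZ count at day 7 was 7. The share of all genes called was not recorded for that fit. The EZ calls lost at day 7 in that fit were those of Col1a1, Col1a2, Col4a1, Col4a4, Col5a3, Col7a1, Col11a1, Col15a1, Col19a1, Col20a1 and Col25a1. In the EZ at day 3 it lost Col8a1 (adjusted p = 0.0107) and Col25a1, and gained Col13a1 upward (1.21, adjusted p = 0.00065) and Col6a4 downward. The PIZ genes gained at day 3 were Col1a1, Col2a1, Col3a1, Col4a1, Col4a4, Col9a2, Col11a1 and Col20a1 upward and Col25a1 downward, and those gained at day 7 were Col1a1, Col1a2, Col3a1, Col9a3, Col16a1 and Col27a1.

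Genes that make, cut and bind collagen were taken from lists of known function. Of 31 genes for collagen processing, 19 were upregulated and 0 downregulated in the EZ at day 3, 19 and 1 (Adamts3, which trims the ends of procollagen) at day 7, 4 and 0 at day 14, and 8 and 0 in the PIZ at day 3. For this list and the 5 that follow, the shares of all genes upregulated are 16.1%, 20.6% and 2.32% in the EZ at days 3, 7 and 14 and 7.12% in the PIZ at day 3, and those downregulated 8.61%, 11.9%, 0.0374% and 1.57%. The median log2 fold change of the list was 1.02 on both of these days in the EZ. P4hb, the disulfide isomerase subunit of prolyl hydroxylase, rose by 1.15 ± 0.16 at day 3 (adjusted p = 9.05e-07) and by 1.17 ± 0.16 at day 7. Ppib, a prolyl isomerase of collagen folding, rose by 0.66 ± 0.09 and 0.60 ± 0.09. P3h4, a cofactor of collagen lysine hydroxylation, rose by 0.98 ± 0.11 (adjusted p = 2.35e-08), 0.85 ± 0.11 and, in the PIZ at day 3, 0.79 ± 0.11. No gene of this list or of the 5 lists that follow was called in the PIZ at day 7 or 14 by edgeR. Each list had 3 to 4 genes at day 7 and 1 to 3 at day 14 with an unadjusted p under 0.05 there. Among all genes tested, 14.5% and 5.97% had such a p on those days. The lists differ in size, so the same count is a larger share of a shorter list. The median over all genes was near 0 in every comparison (0.00 to 0.03).

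Of 16 tested genes for collagen breakdown and its inhibition (17 listed), 11 were upregulated in the EZ at day 3, 13 at day 7 and 1 at day 14, Timp1, and 3 in the PIZ at day 3, with 0 downregulated. The medians were 1.64 and 2.01 at days 3 and 7 in the EZ. The inhibitors were among them, as Timp2 rose by 1.69 ± 0.45 and 2.23 ± 0.45, Timp3 by 0.88 ± 0.25 and 1.67 ± 0.25 and Timp4 by 1.03 ± 0.14 (adjusted p = 3.09e-07) and 0.86 ± 0.14 at days 3 and 7 in the EZ. The protease Mmp19 rose by 2.29 ± 0.40 and 2.46 ± 0.41 in the EZ and by 3.47 ± 0.44 in the PIZ at day 3.

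Of 9 tested collagen receptors (10 listed), 7 were upregulated in the EZ at day 3, 7 at day 7 and 2 at day 14, and 3 in the PIZ at day 3, with EZ medians of 1.23 and 1.46 at days 3 and 7. Ddr1, a receptor tyrosine kinase activated by collagen, rose by 1.47 ± 0.18 (adjusted p = 1.57e-07), 1.86 ± 0.19 and 0.82 ± 0.18 at the 3 days in the EZ and by 1.49 ± 0.19 in the PIZ at day 3. Its relative Ddr2 rose by 1.17 ± 0.19 and 1.46 ± 0.19, and the integrin subunit Itgb1 by 1.5 ± 0.24 and 1.78 ± 0.25, at days 3 and 7 in the EZ.

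Of 17 other basement membrane genes, 10 were upregulated in the EZ at day 3, 11 upregulated and 1 (Lamb3) downregulated at day 7, 1 (Sparc) upregulated at day 14, and 2 in the PIZ at day 3. The EZ medians were 0.85 and 1.0 at days 3 and 7. Sparc, a collagen-binding glycoprotein, rose by 1.30 ± 0.35, 2.65 ± 0.37 and 1.55 ± 0.36. The laminin chain Lama4 rose by 1.78 ± 0.28 at day 3. Agrn, the abundant proteoglycan of this list, had a difference of 0.20 ± 0.10 at day 3 and was not called.

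Of 15 genes for fibril partners, 11 were upregulated and 1 (Fbn2) downregulated in the EZ at day 3, 12 and 1 (Ogn) at day 7, 3 and 0 at day 14 (Bgn, Spp1 and Thbs1), and 2 and 2 (Fbn2 and Ogn) in the PIZ at day 3. The EZ medians were 2.31 and 2.21 at days 3 and 7. Dcn, Lum and Ogn of this list are also among the fibroblast markers. Spp1, a matrix protein that activated microglia also make, rose by 7.61 ± 1.05, 7.71 ± 1.10 and 4.64 ± 1.0 at the 3 days, and Fn1, the fibronectin on which fibrils assemble, by 2.81 ± 0.40 and 2.14 ± 0.39 at days 3 and 7. Microglia markers moved with it, with sums of 1850 to 6943 CPM against 461 to 508 CPM in the EZ at day 7.

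Transforming growth factor beta is the best known inducer of collagen genes. Of 19 genes for its ligands, receptors and carriers, 12 were upregulated and 1 (Tgfbr3) downregulated in the EZ at day 3 and the same numbers at day 7, 2 and 0 at day 14 (Ltbp3 and Tgfbr2), and 7 and 0 in the PIZ at day 3. Its medians in the EZ were 1.08 and 1.46 at days 3 and 7. Ltbp3, which stores the latent ligand in the matrix, rose by 1.73 ± 0.18 (adjusted p = 1.39e-08), 1.84 ± 0.19 and 0.81 ± 0.18 in the EZ and by 1.80 ± 0.19 in the PIZ at day 3. Tgfbi, an induced matrix protein that binds collagen, rose by 4.52 ± 0.53, 3.61 ± 0.52 and, in the PIZ at day 3, 1.79 ± 0.51. The signal transducer Smad3 had a difference of 0.27 ± 0.21 in the EZ at day 3 (not called) and rose by 0.79 ± 0.22 in the PIZ, and Ltbp4 was at -0.09 ± 0.14.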

How the data were processed

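RNA of 48 dentate gyrus libraries was sequenced as stranded, poly-A selected paired reads. The authors trimmed reads with fastp 0.20.1, aligned them to GRCm39 with HISAT2 2.2.1 and used featureCounts (Subread 1.6.4) with Gencode M28 to count them by strand, at the primary alignment of multi-mapping reads, and deposited raw counts per gene. Counts of genes with close relatives are therefore uncertain, and overlapping genes such as Col4a1 and Col4a2 were separated by strand and largest overlap. Symbols, positions and exon lengths were taken from Gencode M39, which matched 54749 of 55357 identifiers (98.90%).

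R 4.3.3 was used throughout. All 48 libraries entered an edgeR 4.0.16 quasi-likelihood fit with a mean for each of the 12 groups, after filterByExpr and TMM scaling. The thresholds of the study were applied to call DEG (adjusted p below 0.01, more than 1.5-fold), with adjustment over 21390 genes per comparison. The SE is the absolute log2 fold change divided by the square root of F. Log2 CPM for exact permutation tests used a prior count of 2. The scripts were tested on simulated data. DESeq2 1.42.0, RLE size factors, no filter, only the compared groups, a block for mouse and fits without 1 mouse at a time were the alternatives.

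Both libraries of a mouse carry its number, so numbers pair the regions by animal. Within a mouse, the correlation of EZ and PIZ residuals was -0.0536 to 0.376, and the block entered as an alternative for the differences between regions.

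The collagen genes, marker lists and pathway lists were chosen with earlier results of these data known. Values per library are given for the chains of types I, III and the ubiquitous type IV, for the 3 largest changes among genes called in each direction, region and day at days 3 and 7, and for members called in differences between regions or at day 14. Of each pathway list the 2 most abundant genes and the 2 most significant in the EZ at day 3 are named, and some others where a count was 5 or fewer. A gene selected by this rule is not reported here. Promoter windows are from RefSeq on GRCm38.p6.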

Additional observations from a re-analysis of the deposited data

Results flagged for a closer look

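Dixon's ratio for 4 libraries was above 0.829 in 19 of 204 sets of 4 libraries of 1 gene. For independent sets chance alone gives about 1 in 20. These sets share libraries across genes, and some genes were picked for large or day 14 changes, so the count cannot be judged against that rate. Mouse 27 accounted for 11 of the 19. In its EZ library at day 14, Col3a1 (23.2 CPM, others 1.51 to 2.42), Col18a1 (28.9, others 2.47 to 3.43), Col27a1 (34.9, others 7.77 to 9.93), Col5a3 (13.9, others 2.84 to 3.68), Col2a1 (14.2, others 1.13 to 1.52), Col4a5 (44.8, others 6.52 to 7.36) and Col16a1 (93.5, others 10.2 to 13) were the highest. Col19a1 (0.498, others 8.9 to 15.1) and Col25a1 (2.36, others 47.5 to 68.5) were the lowest there. In its PIZ library, Col27a1 was the highest (45, others 6.62 to 7.4) and Col19a1 the lowest (12.3, others 15.6 to 15.8).

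Other kainate libraries that stood apart were the EZ library of mouse 44 at day 3 for Col25a1 (38.7 CPM, others 7.65 to 8.99), that of mouse 23 at day 7 for Col6a1 (9.08, others 36 to 40.3) and the PIZ library of mouse 35 at day 7 for Col1a2 (10.6, others 12.9 to 13.3). Among saline libraries, Col1a1 was high in the PIZ of mouse 20 at day 7 (4.38 CPM, others 2.96 to 3.12) and low in the EZ of mouse 89 at day 7 (2.59, others 5.12 to 5.57). Col4a2 was low in the EZ of mouse 39 at day 14 (52.1, others 60.2 to 61.4), Col5a3 low in the PIZ of mouse 28 at day 14 (1.21, others 2.49 to 2.64) and Col2a1 high in the EZ of mouse 29 at day 3 (1.8, others 1.02 to 1.1).

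The kainate effect at day 7 differed between the EZ and the PIZ in the edgeR model for Col4a5 (2.10), Col4a6 (3.26), Col16a1 (2.58), Col9a2 (2.03) and Col19a1 (-2.89), as log2 differences of EZ minus PIZ. These were 12.2% of the collagens, near the 9.89% of all genes. With mouse as a block only Col16a1 was called, and each of these calls was lost when any 1 of 5 or 6 mice was left out.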

How the results depend on the processing

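RLE size factors moved the median of all genes by less than 0.02 log2 and changed no call among 615 values (41 collagens in 15 comparisons). Of 598 values with an adjusted p in DESeq2, 582 had the same call, 0 lost it and 16 gained it, Col27a1 in the PIZ at day 7 and Col16a1 and Col6a2 in the EZ at day 14 among them. DESeq2 called 7 collagens in the EZ at day 14, 3 in the PIZ at day 7, 1 and 11 for the difference between regions at days 3 and 7, and 3 for day 14 minus day 7 in the EZ. The share of all genes called was not recorded for DESeq2 or the other alternative fits, so these counts cannot be set against it. A fit of only the compared groups called 17 in the EZ at day 7, 0 in the EZ at day 14, 16 in the PIZ at day 3 and 7 in the PIZ at day 7. Without a filter, 3 collagens differed between regions at day 7, and the EZ calls of Col4a4 (adjusted p = 0.0128) and Col11a1 (adjusted p = 0.0134) at day 7 were lost. With mouse as a replicate block, 1 collagen differed between regions at day 7, and no other call of the comparisons to which the block applied changed. The cause was not tested.

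Leaving out each mouse in turn gave 15 to 23 calls in the EZ at day 3, 23 to 31 at day 7 and 0 to 7 at day 14, 5 to 7 in the PIZ at day 3 and 0 to 1 at day 7, 0 to 1 and 0 to 11 for the difference between regions at days 3 and 7, and 0 to 17 for day 14 minus day 7 in the EZ. Of 5084 values under these fits, 4925 had the same call, 104 lost it and 55 gained it, of which 17 without mouse 27 and 8 without mouse 23 were for day 14 minus day 7 in the EZ. Of 88 values, namely each call with all libraries and each kainate-saline difference of Col1a1, Col1a2, Col3a1, Col4a1 and Col4a2, 4 changed sign, all without mouse 27 and none called. Values of other genes that were not called turned as well, such as Col18a1 at day 14 without mouse 27 (EZ -0.23, PIZ -0.22). At day 14 in the EZ, the log2 difference ranged from -0.40 to 0.61 for Col1a1 and from -0.27 to 0.64 for Col1a2. In the PIZ at that day it ranged from -0.15 to 0.59 for Col1a2 and from -0.020 to 1.85 for Col3a1. Depth limited Col10a1 and, in the EZ after kainate, Col19a1, which was at a few counts in some libraries.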
